A study of Mus musculus with 12 samples.

Results

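The secondary granule genes of mouse neutrophils described here are Ltf, Camp, Ngp, Lcn2, Cd177, Chil3, Lrg1, Mmp8, Olfm4 and Lyz2. The list was drawn up with earlier results of these data known. Its members were matched by symbol to the array rows annotated to that symbol alone, and each had exactly 1 such row. They are 10 of the 30743 genes named by a single symbol on the array. Signals are on a log2 scale, so a difference of 1 is a 2-fold change.

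Expression was measured on 12 arrays, 2 in each of 6 groups of C57BL/6 myeloid cells. HoxB8-ER lines are marrow progenitors carrying HOXB8 joined to the hormone-binding part of the estrogen receptor. With estradiol at 0.5 µM they keep dividing at a promyelocyte-like stage, and after its withdrawal they become neutrophils in 6 days. The groups were neutrophils labelled Ezh2-null (Ezh2-/-), wild-type neutrophils, Ezh2-null undifferentiated cells, wild-type undifferentiated cells, wild-type neutrophils given GSK343, and wild-type neutrophils given vehicle. GSK343 blocks the enzyme EZH2. Its dose is not settled: the sample labels give 0.5 µM over 9 days, whereas the series text gives 1 µM. All 6 groups share the HOXB8-ER transgene, and the marrow came from null mice and their littermates. How many lines were derived and whether the 2 arrays of a group came from separate cultures are not stated. Genotype and cell line therefore cannot be told apart, and p-values reflect array-to-array spread alone, possibly technical.

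Neutrophils load their granules in waves as they mature. Primary granules, with myeloperoxidase and elastase, are filled at the promyelocyte stage, secondary granules at the myelocyte and metamyelocyte stages, and gelatinase granules after that. Switching on the secondary granule genes is thus a classical sign of late granulocyte maturation, and it depends on the transcription factor C/EBPε. EZH2 is the catalytic subunit of Polycomb repressive complex 2, which methylates lysine 27 of histone H3 at silenced genes.

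The 8 arrays of both genotypes and the 4 drug arrays had different medians (4.54 to 4.65 and 3.88 to 3.96), so levels are compared only within each of these sets. Array background was taken from 23 antigenomic control probe sets as their 95th percentile and lay between 4.83 and 5.79. Ezh2 itself, the check of the genotype labels, read 9.10 and 9.44 in Ezh2-null against 11.57 and 11.65 in wild-type undifferentiated cells (difference −2.34, SE 0.155, adjusted p = 5.5e-05). In neutrophils it read 8.74 and 9.02 in those labelled Ezh2-null against 8.31 and 8.34 in wild type, which is not lower (difference 0.55, adjusted p = 0.0501). On wild-type differentiation Ezh2 fell from a mean of 11.61 to 8.33 (adjusted p = 1.23e-06 by limma). That is under the mean of 9.27 in Ezh2-null undifferentiated cells, so a decrease could hardly be seen in neutrophils and the check cannot decide there. Each direction drawn from the neutrophils therefore rests on their label. As a check of the cell type, all 9 measured neutrophil markers, such as S100a8 and Ly6g, rose on differentiation in both genotypes. Of all transcript clusters on the array, 13.0% rose in wild-type cells and 11.7% in cells labelled Ezh2-null. Macrophage markers rose too, 8 of 9 measured in wild-type cells and 7 of 9 in cells labelled Ezh2-null. In the latter, all 9 measured erythroid markers and 8 of 10 mast cell and basophil markers also rose. The check therefore does not show that the cultures held neutrophils alone.

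The promoters of 4 members are shown because these genes stood at the ends of the range in the comparisons that follow: Lrg1, Camp and Cd177 had the largest decreases of the 10 in neutrophils labelled Ezh2-null, and Mmp8 followed a course of its own. The windows run from 250 bases before to 50 bases after the start site, 5′ to 3′ on the gene's strand, from RefSeq on build GRCm38.p6. All 10 members matched that table. The windows are chr17:56121897-56122196 (minus strand) for Lrg1, chr9:109849407-109849706 (minus strand) for Camp, chr7:24760262-24760561 (minus strand) for Cd177 and chr9:7558179-7558478 (plus strand) for Mmp8. Capitals mark matches to TTNNGNAA, the C/EBP motif searched, on either strand.
Lrg1: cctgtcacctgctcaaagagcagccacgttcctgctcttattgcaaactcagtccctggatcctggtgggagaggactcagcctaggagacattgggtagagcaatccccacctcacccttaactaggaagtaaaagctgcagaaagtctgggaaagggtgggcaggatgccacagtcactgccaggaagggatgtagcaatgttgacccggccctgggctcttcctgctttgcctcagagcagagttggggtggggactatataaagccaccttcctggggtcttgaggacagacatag
Camp: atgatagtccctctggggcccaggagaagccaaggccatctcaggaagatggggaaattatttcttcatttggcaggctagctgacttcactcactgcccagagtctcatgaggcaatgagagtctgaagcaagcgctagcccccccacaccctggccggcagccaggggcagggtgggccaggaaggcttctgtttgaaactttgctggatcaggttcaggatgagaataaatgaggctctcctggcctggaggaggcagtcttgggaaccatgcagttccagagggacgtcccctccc
Cd177: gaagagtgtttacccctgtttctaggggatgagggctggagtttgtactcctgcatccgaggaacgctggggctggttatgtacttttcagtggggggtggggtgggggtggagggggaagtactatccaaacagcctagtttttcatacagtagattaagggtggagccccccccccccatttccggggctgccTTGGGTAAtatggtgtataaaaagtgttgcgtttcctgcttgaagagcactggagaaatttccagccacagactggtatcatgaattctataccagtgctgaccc
Mmp8: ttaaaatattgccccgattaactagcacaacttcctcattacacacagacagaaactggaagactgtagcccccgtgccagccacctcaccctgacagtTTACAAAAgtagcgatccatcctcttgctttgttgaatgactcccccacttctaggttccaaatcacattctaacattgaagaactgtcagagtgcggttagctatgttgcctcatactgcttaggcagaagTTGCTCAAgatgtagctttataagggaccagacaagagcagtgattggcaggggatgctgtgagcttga

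TTNNGNAA was found in the windows of 8 of the 10 members, against 40.7% of 32851 promoter windows of the same length. Camp and Lrg1 were the exceptions. The single match in Cd177 began 55 bases before the start site, and the matches in Mmp8 began 151 and 19 bases before it. GAGGAA, the core bound by PU.1, was found in 5 of 10 members against 28.3% of all windows, and GATAA, the core bound by GATA factors, in 2 of 10 against 25.4%. Both strands were searched, and in the 10 member windows no matches of different motifs overlapped. These are letter matches within 300 bases and say nothing of binding. Of the 10 genes, 4 lie on chromosome 9: Camp, Ngp and Ltf stand in that order with 8 and 20 protein-coding genes between neighbours, while Mmp8 lies 1020 protein-coding genes from Camp.

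**Figure D1:**
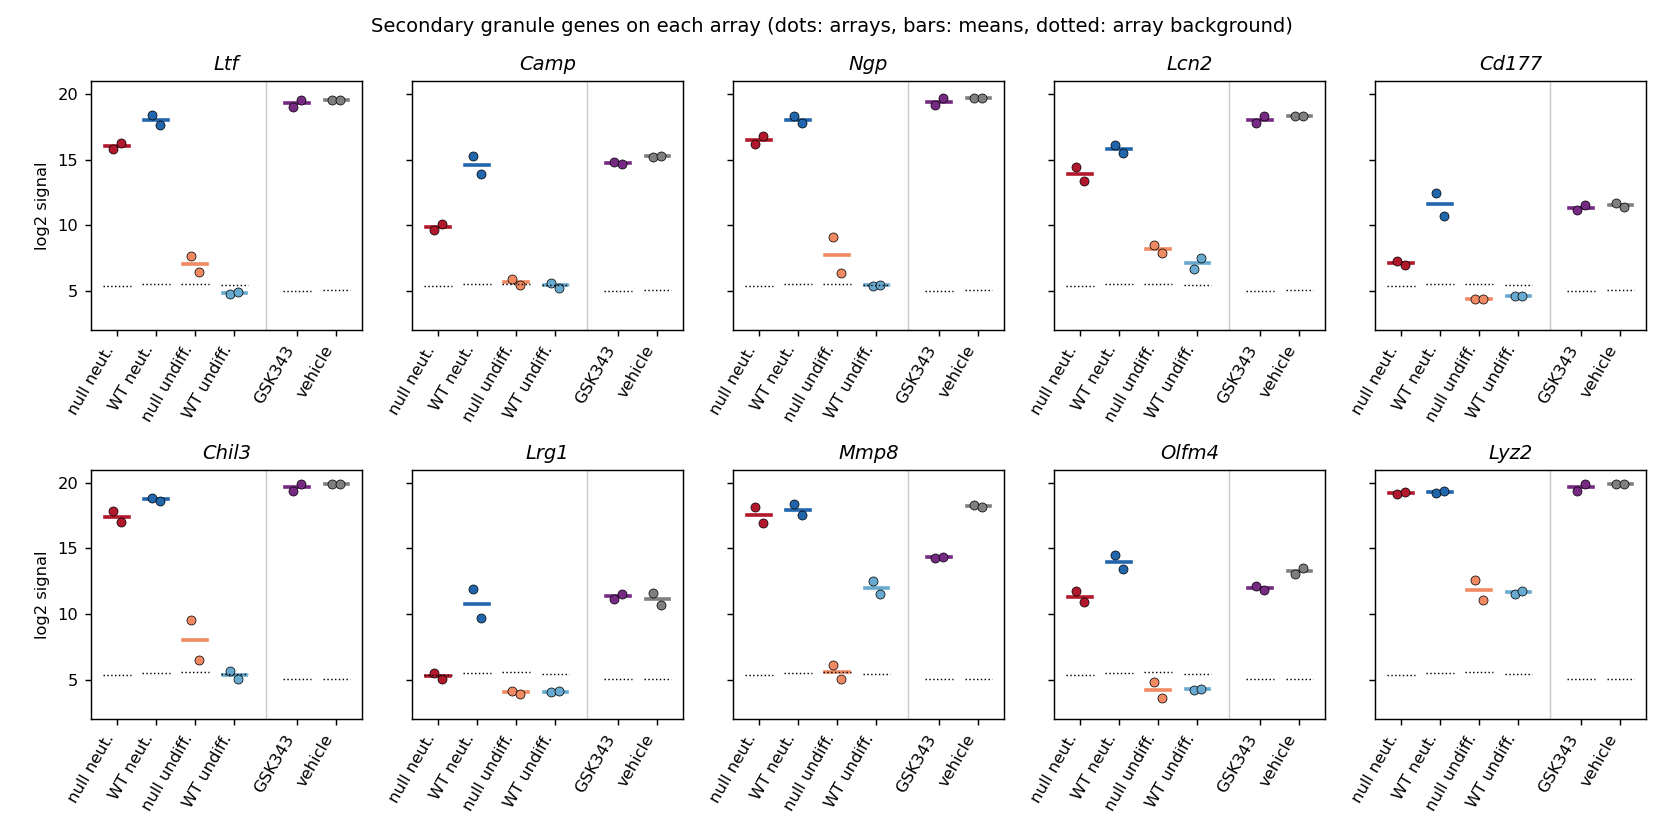
Log2 signal of each of the 10 genes on every array, with dots for arrays, bars for group means and dotted lines for array background; the genotype groups stand left of the grey line (null, labelled Ezh2-null; WT, wild type; neut., neutrophils; undiff., undifferentiated cells) and the drug groups right of it. All 10 genes are higher in wild-type neutrophils than in wild-type undifferentiated cells, and Mmp8 is lower on both GSK343 arrays than on both vehicle arrays by more than 2 log2 units.

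The first comparison asked how the genes move when estradiol is withdrawn. All 10 rose in wild-type cells, against 13.0% of the 65956 transcript clusters on the array called higher by the same rule, a Benjamini-Hochberg adjusted p under 0.05 in limma over all clusters. Their median difference was 8.95, or 8.64 with genes under background held at their bound, against 0.03 over all clusters. Chil3, the chitinase-like protein Ym1, read 18.87 and 18.62 in wild-type neutrophils against 5.69 and 5.07 in wild-type undifferentiated cells. That is 10588-fold (difference 13.37, SE 0.775, adjusted p = 3.54e-06), or 9503-fold with the 1 wild-type undifferentiated array that lay under background raised to it. Ltf encodes lactoferrin, the iron-binding protein used to define these granules. It read 18.38 and 17.66 in wild-type neutrophils against 4.79 and 4.88 in wild-type undifferentiated cells, where it lay under background on both arrays. The increase was at least 6115-fold (difference 13.18, SE 0.389, adjusted p = 1.36e-07). Ngp, neutrophilic granule protein, was 6373-fold higher, or 6127-fold with 1 undifferentiated array raised to background. The arrays of the 2 stages did not overlap for any of the 10 members, a separation in this direction seen in 33.2% of all clusters.

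Camp encodes the precursor of the cathelicidin antimicrobial peptide and rose 573-fold in wild-type cells, or 548-fold with 1 undifferentiated array raised to background. Lcn2, lipocalin 2, which binds bacterial siderophores, rose 426-fold. Olfm4, a glycoprotein present in a subset of mature neutrophils, rose at least 370-fold. Lyz2, a lysozyme made by macrophages as well as neutrophils, rose 203-fold, and it was already well above background in undifferentiated cells at 11.49 and 11.78. Cd177, a surface and granule membrane protein of neutrophils, rose at least 70.8-fold, and Lrg1, a secreted leucine-rich glycoprotein packaged in neutrophil granules, at least 40.8-fold. Mmp8, the neutrophil collagenase, rose 61.7-fold. Its undifferentiated level was also far above background, at 12.48 and 11.55.

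In cells labelled Ezh2-null, 9 of the 10 rose, against 11.7% of all clusters, with a median difference of 7.25, or 6.57 with 2 genes at their bound. Mmp8 read 18.16 and 16.97 in neutrophils labelled Ezh2-null against 6.10 and 5.08 in Ezh2-null undifferentiated cells. This increase was 4039-fold (difference 11.98, SE 0.478, adjusted p = 7.3e-07), or 3698-fold with the 1 undifferentiated array under background raised to it. Chil3, Ltf, Ngp and Lcn2 rose 686-fold, 508-fold, 437-fold and 52.2-fold in these cells, Lyz2 168-fold and Olfm4 at least 53.8-fold. Camp rose 18.6-fold and Cd177 at least 2.95-fold. Lrg1 was not called: it read 5.52 and 5.01 in neutrophils labelled Ezh2-null and 4.16 and 3.87 in their undifferentiated cells (difference 1.25, adjusted p = 0.18). Of these 4 values, 1 neutrophil array was above background.

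**Figure D2:**
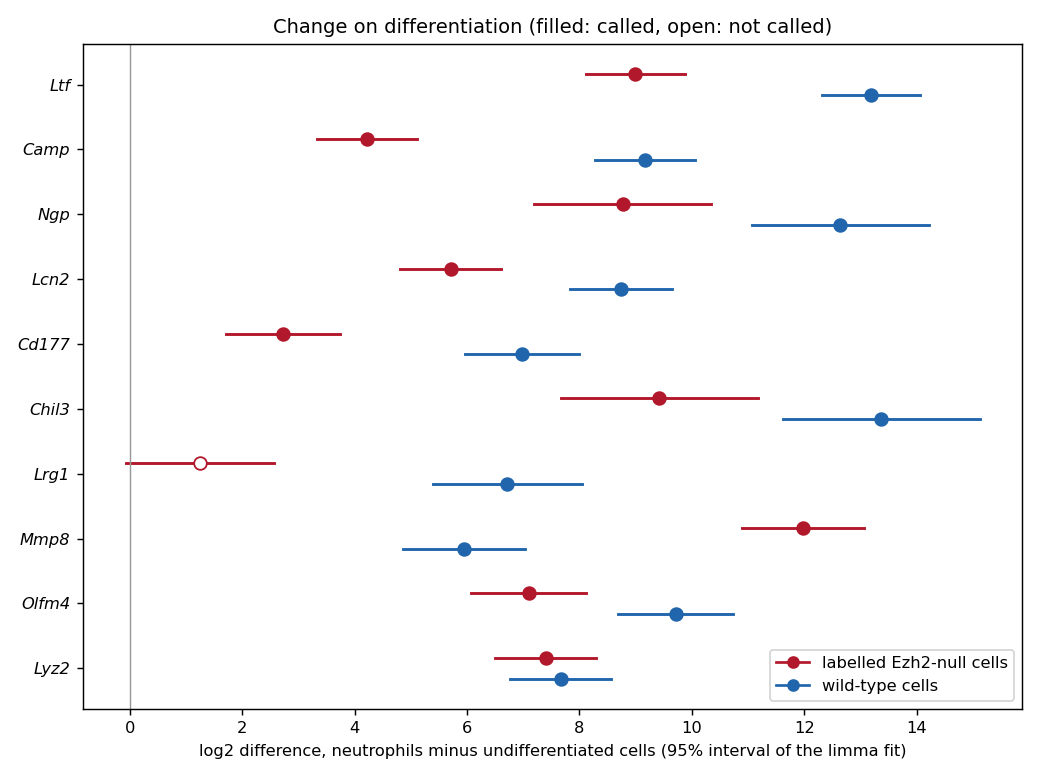
Log2 difference between neutrophils and undifferentiated cells for each gene, with its 95% interval in the limma fit; filled points were called at an adjusted p under 0.05, and values of genes under background in undifferentiated cells are fitted ones, not bounds. The points of cells labelled Ezh2-null lie left of those of wild-type cells for every gene but Mmp8, where they lie at 11.98 and 5.95.

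The main genotype comparison asked whether neutrophils labelled Ezh2-null carry the secondary granule programme. In them 6 of the 10 genes were lower than in wild type and none was higher, against 5.06% of all clusters called lower. The member median was −1.96, against −0.03 over all clusters. Lrg1, Camp and Cd177 were lower by 46.1-fold, 26.6-fold and 22.1-fold, Olfm4, Ltf and Lcn2 by 6.35-fold, 3.96-fold and 3.82-fold. Ngp (difference −1.55), Chil3 (−1.32), Mmp8 (−0.39) and Lyz2 (−0.09) were not called.

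Lrg1 read 5.52 and 5.01 in neutrophils labelled Ezh2-null against 11.87 and 9.72 in wild type (difference −5.53, SE 0.585, adjusted p = 0.000382). Both wild-type arrays were above both null-labelled arrays, of which 1 was under background, and the fold was 42.9 with that array raised to background. Camp read 9.63 and 10.11 in neutrophils labelled Ezh2-null against 15.31 and 13.89 in wild type (difference −4.74, SE 0.394, adjusted p = 0.000103). The gap between the genotypes was over 3 log2 units at its narrowest. Cd177 read 7.25 and 6.98 in neutrophils labelled Ezh2-null against 12.48 and 10.70 in wild type (difference −4.47, SE 0.449, adjusted p = 0.000282). For all 3 genes wild-type array 1 was higher than wild-type array 2 by over 1 log2 unit, which is less than the genotype difference. Among the decreases of all 65956 clusters, Camp ranked 43rd and Cd177 50th.

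Olfm4 read 11.73 and 10.88 in neutrophils labelled Ezh2-null against 14.50 and 13.45 in wild type (difference −2.67, SE 0.451, adjusted p = 0.00476). Ltf read 15.81 and 16.26 in neutrophils labelled Ezh2-null against 18.38 and 17.66 in wild type (difference −1.98, SE 0.389, adjusted p = 0.00985). Lcn2 read 14.43 and 13.36 in neutrophils labelled Ezh2-null against 16.13 and 15.53 in wild type (difference −1.93, SE 0.401, adjusted p = 0.0129). None of these 3 genes overlapped between genotypes. In all, 8 of the 10 members had both null-labelled arrays under both wild-type arrays, against 27.7% of all clusters. The call was lost for Ltf without wild-type neutrophil array 1 (adjusted p = 0.0767) or null-labelled neutrophil array 1 (0.0659), and for Lcn2 without wild-type neutrophil array 1 (0.0957) or null-labelled neutrophil array 2 (0.0955).

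Ngp read 16.20 and 16.78 in neutrophils labelled Ezh2-null against 18.30 and 17.78 in wild type (difference −1.55, 95% interval −3.13 to 0.02, adjusted p = 0.229). Chil3 read 17.88 and 16.98 in neutrophils labelled Ezh2-null against 18.87 and 18.62 in wild type (difference −1.32, 95% interval −3.07 to 0.43, adjusted p = 0.389). Both are among the 8 members without overlap. The widest gap within a group entered their error from elsewhere, from the 2 Ezh2-null undifferentiated arrays, with SDs of 1.97 for Ngp and 2.14 for Chil3. When either of those 2 arrays was left out, the differences in neutrophils stayed at −1.55 for Ngp and −1.32 for Chil3. Such a fit leaves 1 array in that group and drops its spread from the error. It therefore cannot decide whether the 2 genes were lower. The count of members called ranged from 4 to 8 over the fits that left out 1 array each.

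Mmp8 read 18.16 and 16.97 in neutrophils labelled Ezh2-null against 18.35 and 17.57 in wild type, and the arrays of the genotypes overlapped (difference −0.39, 95% interval −1.47 to 0.68, adjusted p = 0.744). Lyz2 read 19.15 and 19.29 in neutrophils labelled Ezh2-null against 19.26 and 19.35 in wild type (difference −0.09, 95% interval −0.98 to 0.81, adjusted p = 0.95). Lyz2 stood close to the highest value of each of these 4 arrays, which lay between 19.46 and 19.63.

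Markers of other cells moved in the same arrays, where 6.75% of all clusters were called higher and 5.06% lower. All 10 mast cell and basophil markers were higher in neutrophils labelled Ezh2-null, with log2 summed signals of 19.39 and 19.43 against 13.65 and 12.10 in wild type. All 9 measured erythroid markers were higher, with summed signals of 17.53 and 17.77 in neutrophils labelled Ezh2-null against 8.14 and 8.15 in wild type. All 6 measured cell cycle genes were higher, at 17.37 and 17.59 in neutrophils labelled Ezh2-null against 14.14 and 15.10 in wild type. Of 9 measured macrophage markers, 4 were lower, at 15.30 and 15.75 in neutrophils labelled Ezh2-null against 16.46 and 17.61 in wild type. Progenitor markers (4 of 8 higher) summed to 13.84 and 13.23 in neutrophils labelled Ezh2-null against 10.53 and 10.63 in wild type, and eosinophil markers (2 of 5 higher, Il5ra under background on all 4 arrays and Ccr3 on 3 of them) to 10.72 and 9.87 in neutrophils labelled Ezh2-null against 10.30 and 10.40 in wild type. Neutrophil markers (2 of 9 lower, 1 higher) summed to 20.39 and 19.87 in neutrophils labelled Ezh2-null against 20.85 and 20.35 in wild type, and among them Ly6g fell by 3.38 on the log2 scale. In these bulk samples fewer neutrophils and less RNA per neutrophil cannot be told apart, and the part of the other cell types in the granule result was not tested.

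Before differentiation 2 of the 10 genes were called, Ltf and Mmp8, and in opposite directions. Ltf read 7.68 and 6.41 in Ezh2-null undifferentiated cells against 4.79 and 4.88 in wild-type undifferentiated cells. It was at least 3.04-fold higher (difference 2.21, SE 0.389, adjusted p = 0.016), which made 1 member of 10 against 1.65% of clusters called higher. Mmp8 read 6.10 and 5.08 in Ezh2-null undifferentiated cells against 12.48 and 11.55 in wild-type undifferentiated cells. It was 86-fold lower (difference −6.43, SE 0.478, adjusted p = 0.000108), or 78.8-fold with 1 Ezh2-null array raised to background, against 1.34% of clusters called lower. The collagenase signal thus lay under background on 1 of the 2 Ezh2-null arrays and far above it on both wild-type arrays. The Ltf call was lost without wild-type undifferentiated array 1 (adjusted p = 0.117) or array 2 (0.0925), and when only the 8 genotype arrays were fitted (0.0742).

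Ngp and Chil3 had large differences in the undifferentiated cells without a call, and there the Ezh2-null arrays disagreed. Ngp read 9.11 and 6.33 in Ezh2-null undifferentiated cells against 5.39 and 5.42 in wild type (difference 2.31, adjusted p = 0.158). Chil3 read 9.52 and 6.50 in Ezh2-null undifferentiated cells against 5.69 and 5.07 in wild type (difference 2.63, adjusted p = 0.149). Ezh2-null array 1 was the higher in both genes. Of the neutrophil markers, S100a8 moved with it, at 11.57 and 8.43 on the Ezh2-null arrays against 7.18 and 5.79 in wild type. S100a9 did too, at 10.56 and 8.24 on the Ezh2-null arrays against 6.00 and 5.49 in wild type. Csf3r did not follow array 1, but it was higher on both Ezh2-null arrays, at 10.12 and 10.39 against 8.78 and 8.46 in wild type. Of the 9 measured neutrophil markers, 1 was called higher in Ezh2-null undifferentiated cells (1.65% of all clusters) and 1 lower (1.34%). The other 7 were not called, and 4 of the 9 lay under background on both Ezh2-null arrays. Summed neutrophil markers were 12.69 and 11.35 on the Ezh2-null arrays against 11.38 and 10.80 in wild type, and their part in the result was not tested. Without Ezh2-null undifferentiated array 2 the differences were 3.70 for Ngp and 4.14 for Chil3. Without Ezh2-null undifferentiated array 1 they were 0.92 and 1.12. The size of both differences thus hung on which Ezh2-null array was kept.

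The other 6 genes were not called in undifferentiated cells. Lcn2 read 8.48 and 7.91 in Ezh2-null undifferentiated cells against 6.70 and 7.49 in wild type, without overlap, as 18.0% of all clusters did in this direction (difference 1.10, 95% interval 0.19 to 2.00, adjusted p = 0.271). Lyz2 read 12.58 and 11.07 in Ezh2-null undifferentiated cells against 11.49 and 11.78 in wild type (difference 0.19, adjusted p = 0.944). For Lyz2, too, Ezh2-null array 1 was the higher, and the wild-type arrays lay between the Ezh2-null ones. Camp stayed close to background, at 5.87 and 5.42 in Ezh2-null against 5.63 and 5.25 in wild-type undifferentiated cells. Cd177 (4.38 and 4.41 in Ezh2-null, 4.58 and 4.64 in wild type), Lrg1 (4.16 and 3.87 in Ezh2-null, 4.04 and 4.12 in wild type) and Olfm4 (4.79 and 3.62 in Ezh2-null, 4.22 and 4.30 in wild type) lay under background on all 4 arrays, so no fold can be given.

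**Figure D3:**
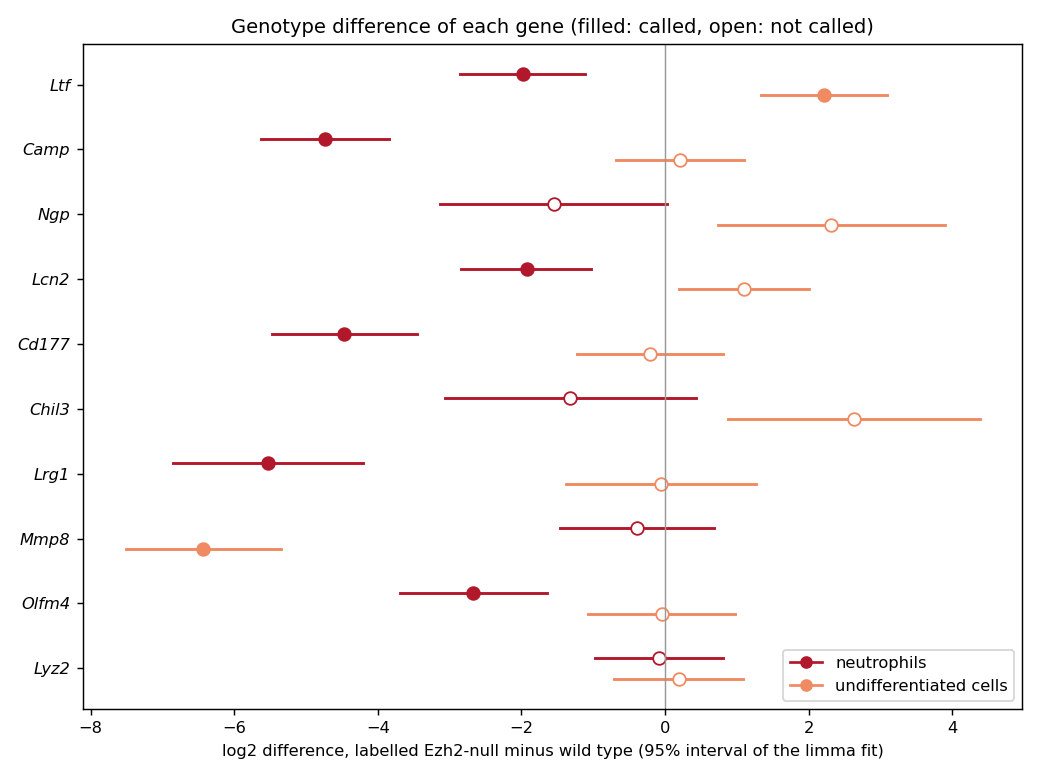
Log2 difference between cells labelled Ezh2-null and wild-type cells for each gene, in neutrophils and in undifferentiated cells, with the 95% interval of the limma fit; filled points were called at an adjusted p under 0.05. In neutrophils 6 genes are called lower, whereas in undifferentiated cells Ltf is called higher (2.21) and Mmp8 lower (−6.43).

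The test of the difference between these 2 genotype effects is the interaction of genotype with stage, which equals the difference between the 2 courses of differentiation. It was called lower for 5 members, against 1.65% of clusters, and higher for 1, against 2.77%. Of those 5, Camp (−4.94, SE 0.558, adjusted p = 0.00157), Ltf (−4.20, SE 0.55, adjusted p = 0.00346) and Lcn2 (−3.03, SE 0.567, adjusted p = 0.0184) were above background on at least 1 undifferentiated array. Ltf was under background on both wild-type undifferentiated arrays, so its value is a fitted one, and Camp on 1 of them. Lrg1 and Cd177 lay under background on all 4 undifferentiated arrays. Their genotype effect before differentiation was therefore not measured, and their fitted values (−5.46 and −4.26) rest on the neutrophil arrays. Mmp8 ran the other way (6.03, SE 0.676, adjusted p = 0.00154): the collagenase gene began lower in cells labelled Ezh2-null and ended at a level not distinguished from wild type.

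Ngp (−3.87, adjusted p = 0.0654), Chil3 (−3.95, adjusted p = 0.0888) and Olfm4 (−2.61, adjusted p = 0.0557) missed the threshold, and Lyz2 was at −0.27. All 3 passed with dim clusters left out (adjusted p = 0.0294 for Ngp, 0.0413 for Chil3 and 0.0268 for Olfm4), which made 8 members lower and 9 called in that fit. Without Ezh2-null undifferentiated array 1 the interaction was −2.48 for Ngp and −2.44 for Chil3. Without Ezh2-null undifferentiated array 2 it was −5.26 for Ngp and −5.46 for Chil3. Each of these fits leaves 1 array in that group, whose spread then drops out of the error. Olfm4, too, was under background on all 4 undifferentiated arrays. The Lcn2 call was lost without wild-type undifferentiated array 1 (adjusted p = 0.071), wild-type neutrophil array 1 (0.0677) or null-labelled neutrophil array 2 (0.0551), and with the 8 genotype arrays alone (0.071). The members called ranged from 5 to 9 over all alternatives.

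The drug comparison asked whether inhibiting EZH2 in wild-type cells alters the same genes. By limma none of the 10 was called, against 0.00152% of clusters called in either direction (1 cluster, the mast cell gene Cpa3). At an unadjusted p under 0.05, 2 members were lower, Mmp8 and Olfm4, against 2.41% of clusters. Mmp8 read 14.28 and 14.36 with GSK343 against 18.29 and 18.16 with vehicle. The gap of 15-fold was far larger than the gap between arrays of a group (difference −3.90, SE 0.478, adjusted p = 0.119), and it was the largest fitted decrease among all 65956 clusters, some of which stood at the ceiling of these arrays. Mmp8 was called when the 4 drug arrays were fitted alone, as the sole called cluster (adjusted p = 0.0274), but not in any of the 12 fits that left out 1 array (adjusted p between 0.0905 and 0.991). The gelatinase granule genes Mmp9 (−2.91, adjusted p = 0.166) and Plbd1 (−2.43, adjusted p = 0.234) had the next largest decreases.

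Olfm4 read 12.16 and 11.82 with GSK343 against 13.06 and 13.49 with vehicle, without overlap, as 18.6% of all clusters did in this direction (difference −1.28, 95% interval −2.30 to −0.26, adjusted p = 0.692). Camp read 14.82 and 14.68 with GSK343 against 15.19 and 15.30 with vehicle (difference −0.50, 95% interval −1.39 to 0.39, adjusted p = 0.997). Cd177 read 11.14 and 11.54 with GSK343 against 11.67 and 11.43 with vehicle (difference −0.21, 95% interval −1.22 to 0.81). Lrg1 read 11.16 and 11.54 with GSK343 against 11.61 and 10.67 with vehicle (difference 0.21, 95% interval −1.12 to 1.53). Cd177 and Lrg1 overlapped between the treatments, and their intervals leave out decreases as large as those in the neutrophils labelled Ezh2-null.

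The remaining 5 members stood at or near the top of the scale. The highest value was 19.40 on GSK343 array 1, shared by 92 clusters, and 19.93 on the other 3 drug arrays, shared by 21 clusters on each. Chil3 and Lyz2 lay at that top on all 4 drug arrays. Lcn2 read 17.77 and 18.30 with GSK343 and 18.30 on both vehicle arrays, so it repeated a top value of its own once the lower ceiling of GSK343 array 1 (−0.53) was allowed for, to within 0.001. Ltf did so on 3 arrays, reading 19.05 and 19.54 with GSK343 against 19.58 on both vehicle arrays, and Ngp read 19.16 and 19.67 with GSK343 against 19.69 and 19.70 with vehicle. Such repeats on 3 or 4 arrays were found in 28 of 225 clusters with a mean between 18 and 20. No fold is given for Chil3, Lyz2, Lcn2 and Ltf, whose drug effect these arrays could not measure. Ngp did not repeat a top value in this way, but it stood near the ceiling, which limits its drug difference too. Beside these values, the summed eosinophil markers (0 of 5 called, against 0.00152% of all clusters) were 14.54 and 14.16 with GSK343 against 11.43 and 10.79 with vehicle. Prg2 made up most of that sum, at 14.51 and 14.12 with GSK343 against 11.08 and 10.22 with vehicle. Epx was also higher with GSK343, whereas Siglecf went the other way (8.42 and 8.51 with GSK343, 9.09 and 9.04 with vehicle). Il5ra and Ccr3 lay under background on all 4 drug arrays. The summed mast cell and basophil markers (1 of 10 called) were 15.12 and 15.07 with GSK343 against 13.65 and 13.60 with vehicle. Cpa3 made up most of the sum with GSK343, at 14.88 and 14.79 against 11.76 and 11.93 with vehicle. Mcpt8 was also higher with GSK343, whereas Hdc went the other way (12.28 and 12.44 with GSK343, 13.13 and 13.00 with vehicle). Gata2, Fcer1a and Mcpt4 lay under background on all 4 drug arrays. The summed neutrophil markers (0 of 9 called) were 20.76 and 21.15 with GSK343 against 21.30 and 21.32 with vehicle. Among the neutrophil markers, S100a8 lay at the top value on all 4 drug arrays, and S100a9 read 19.40 on GSK343 array 1. The ceiling therefore limits the neutrophil sum as well. The part of all these markers in the result was not tested.

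**Figure D4:**
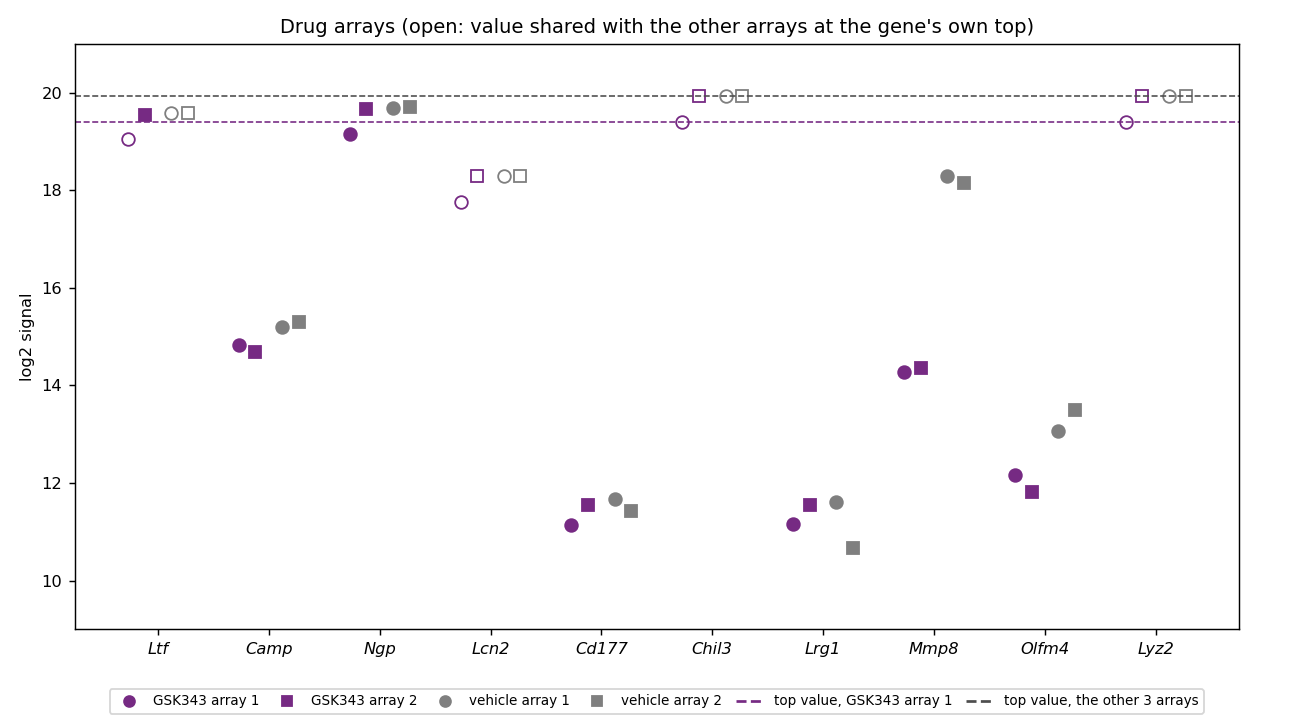
Log2 signal of each gene on the 2 GSK343 and 2 vehicle arrays, with dashed lines at the highest value of GSK343 array 1 (19.40) and of the other 3 arrays (19.93); open symbols mark values repeated at a gene's own top after allowing for the lower ceiling of GSK343 array 1. Mmp8 stands near 14.3 with GSK343 and near 18.2 with vehicle, while Chil3 and Lyz2 lie on the dashed lines.

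Genotype and drug effects in neutrophils share no array and were tested against each other. The genotype effect was the more negative for Lrg1 (−5.73, SE 0.827, adjusted p = 0.00624), Cd177 (−4.26, SE 0.635, adjusted p = 0.00734) and Camp (−4.24, SE 0.558, adjusted p = 0.00377), 3 members against 1.33% of clusters. For Mmp8 it was the less negative (3.51, SE 0.676, adjusted p = 0.0252), 1 member against 1.97% of clusters. Among the 6 members other than Chil3, Lyz2, Lcn2 and Ltf, Mmp8 thus had the largest GSK343 difference and the smallest genotype difference in neutrophils, whereas Lrg1, Camp and Cd177 had the 3 largest genotype differences and GSK343 differences between −0.50 and 0.21. The Mmp8 call was lost in 6 of the 12 fits without 1 array (adjusted p between 0.0618 and 0.0984) and after quantile normalization (0.0634). Values at the ceiling make this test uninformative for Chil3, Lyz2, Lcn2 and Ltf. For Ngp, which stood near the ceiling on the drug arrays, the test is limited as well.

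Other genes of the granule programme were followed as lists. Of 15 further specific granule genes, 14 had a row of their own (Itgam and Adam8 also stand in the gelatinase list), and Slpi was not analysed here. In neutrophils labelled Ezh2-null 6 were lower, against 5.06% of all clusters, and none was higher, with a median of −0.99. Cybb, the large subunit of the oxidase carried in the same granule membrane, was 5.26-fold lower (difference −2.39, adjusted p = 0.000207), and the adhesion molecule Ceacam1 was 3.99-fold lower (adjusted p = 0.000569). On differentiation of wild-type cells 13 of the 14 rose, against 13.0% of all clusters, led by Cybb (12.16) and Adam8 (9.59), and in undifferentiated cells the integrin genes split, with Itgam lower (−1.76) and Itgb2 higher (1.34) in Ezh2-null cells. None of the 14 was called with GSK343, where only 0.00152% of all clusters were called in either direction. Of 9 measured gelatinase granule genes, 5 were called lower with the Ezh2-null label in neutrophils, against 5.06% of all clusters, and 1 of the 5, Mmp25, lay under background on every array. Plbd1 was at least 155-fold lower (adjusted p = 2.94e-06) and the heparanase gene Hpse 93.9-fold lower (adjusted p = 2.78e-05).

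Primary granule genes, the earlier wave, were listed beside the secondary ones. In neutrophils labelled Ezh2-null 2 of 10 were higher, against 6.75% of all clusters, and 1 lower, against 5.06%. With dim clusters left out, 4259 of 25790 clusters were higher and 3574 lower. Mpo, myeloperoxidase, was 11.2-fold higher (difference 3.48, adjusted p = 0.0044) and Serpinb1a, an inhibitor of granule proteases, was lower (difference −2.82, adjusted p = 0.00648). In undifferentiated cells 4 of 10 were lower in Ezh2-null cells, against 1.34% of all clusters, led by Ms4a3 (−6.86) and Ctsg (−4.00). On wild-type differentiation 7 of 10 fell, against 12.2% of all clusters, among them Ctsg (−10.56) and Mpo (−10.21), while all 10 secondary granule members rose.

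Transcription factors known to act on granule genes were also listed, and 8 of 9 had a row of their own (Spi1 was not analysed here). In neutrophils labelled Ezh2-null 3 of the 8 were lower, against 5.06% of all clusters. Cebpe, which mice need to make secondary granules, read 8.22 and 7.61 in neutrophils labelled Ezh2-null against 10.50 and 8.87 in wild type (difference −1.77, SE 0.445, adjusted p = 0.0318). The wild-type arrays differed from each other by nearly as much as the genotypes did. Cebpa, needed for the step to granulocyte progenitors, was lower in neutrophils labelled Ezh2-null (−1.35, adjusted p = 0.0131) and in undifferentiated Ezh2-null cells (−1.63, adjusted p = 0.0146). Cbfb, the partner subunit of RUNX1, was lower in neutrophils labelled Ezh2-null (−1.06, adjusted p = 0.0111), and Runx1 was higher in undifferentiated Ezh2-null cells (1.36, adjusted p = 0.0324). Gfi1 (−0.49), Cebpb (0.18), Cebpd (−1.44) and Irf8 (−0.85) were not called in neutrophils. With GSK343 none of the 8 was called, against 0.00152% of all clusters in either direction, and Cebpe was at −0.34.

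Likeness among the genes was described by Pearson's r over the 8 genotype arrays, which share the large step between undifferentiated cells and neutrophils. Each member was set against the mean of the other 9. Olfm4 was the most typical (r = 0.999) and Lrg1 (0.816) and Mmp8 (0.834) the least. Outside the list, the genes most like the members' mean among 30733 were Gm13768 (0.998), Vsir (0.998), Aldh3b1 (0.997), Cybb (0.996) and Acpp (0.996). Vsir averaged 12.23 in neutrophils labelled Ezh2-null and 13.83 in wild type, against 6.30 and 6.33 in the undifferentiated cells of those genotypes.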

How the data were processed

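RNA (250 ng of total RNA a sample) was hybridised to 12 Affymetrix mouse transcriptome arrays, per the labels' protocols. The authors deposited 1 log2 signal for each transcript cluster. Transcriptome Analysis Console and Affymetrix Expression Console are the tools in the submitters' processing notes; their versions, the summarisation and the build were not given in the sources used here. Of 72688 entries, 6732 control probe sets were left out. Symbols came from the platform annotation, updated by Entrez ID through RefSeq (GRCm38.p6). The members and lists were chosen with earlier results of these data known. All 10 members are named, with Ezh2, every regulator, the 2 called genes of each other list with the largest change in a comparison, and the 5 most alike genes.

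limma 3.58.1 in R 4.3.3 (lmFit, eBayes; residual degrees of freedom 6, prior 3.06) fitted 6 group means to all 12 arrays and was tested on simulated data. Adjusted p-values are limma's, by Benjamini-Hochberg over 65956 clusters, and called under 0.05. Shares of all clusters include those under background. From 28.8% to 43.4% of clusters lay above background on an array, and shares among brighter clusters can be higher. A fold is "at least" where the dimmer group lay under background on both arrays, and is then taken against the higher of background and signal. Where 1 of 2 arrays lay under background, the fold with that array raised to background is given too, a choice made after seeing the data. SDs are over 2 arrays; that number limits the precision. Marker signals were summed on the linear scale. Alternatives were quantile normalization, median centring, fits to 1 set of arrays, leaving out dim clusters, ceiling values or each array, a trended robust prior, and a replicate block. Replicate numbers did not pair the arrays (correlations of replicate gaps between −0.25 and 0.19).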

Additional observations from a re-analysis of the deposited data

Results flagged for a closer look

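The interaction of genotype with stage was called by limma for 6 of the 10 genes, 5 lower against 1.65% of all clusters and 1 higher against 2.77%. The difference, in log2 and as the effect in neutrophils minus that in undifferentiated cells, was −5.46 for Lrg1, −4.94 for Camp, −4.26 for Cd177, −4.20 for Ltf and −3.03 for Lcn2. Lrg1 and Cd177 lay under background on all 4 undifferentiated arrays, so a difference between the stages cannot be read for them. Mmp8 differed in the opposite direction, by 6.03. It was the only member that was lower in Ezh2-null undifferentiated cells and not called between the neutrophils, and the only one whose fitted increase on differentiation was larger in cells labelled Ezh2-null.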

How the results depend on the processing

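The limits lie in the number of arrays, 2 per group, in the ceiling of the drug arrays, and in background, under which Lrg1, Cd177 and Olfm4 lay in undifferentiated cells. Quantile normalization, median centring, leaving out dim clusters, the trended robust prior and leaving out ceiling values kept the count of members called at 6 in the neutrophil genotype comparison, and fits without 1 array gave 4 to 8. Of the member results under all alternatives, 1267 kept direction and side of the threshold, 22 became called, 18 lost the call and 9 changed sign. The alternative of another row per gene was not run, since each member has 1 row.

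The replicate block, whose numbers are shared labels only, raised the clusters called with GSK343 from 1 to 2 and the members called from 0 to 1 (Mmp8). It also brought Olfm4 past the threshold in the interaction (adjusted p = 0.0344) and changed no other call of a member. With only the arrays of the same set, the clusters called were 1061 instead of 1969 for genotype in undifferentiated cells (members called: 1 instead of 2), and 1352 instead of 2911 for the interaction (members called: 5 to 9 over all alternatives, against 6); members called with GSK343 were 1. GSK343 against vehicle had 8 clusters called with median centring, 2 with dim clusters left out and 3 with the trended robust prior.

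Fits without 1 array gave 4023 to 9580 clusters for genotype in neutrophils, 962 to 2776 for genotype in undifferentiated cells (members called: 1 to 4), 0 to 2 for GSK343 against vehicle, 1511 to 3758 for genotype by stage interaction and 947 to 2996 for genotype against drug difference. The 9 results that changed sign were not called either way. Without 1 array, the genotype difference in undifferentiated cells ran from −0.02 to 0.43 for Camp, from −0.21 to 0.09 for Lrg1, from −0.64 to 0.53 for Olfm4 and from −0.57 to 0.94 for Lyz2. Mmp8 in neutrophils ran from −0.99 to 0.20, Lrg1 with GSK343 from −0.27 to 0.68, the Lyz2 interaction from −1.03 to 0.48, and Lyz2 genotype against drug from −0.09 to 0.44, with −0.05 after quantile normalization. The cause was not tested.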

Other observations

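Mmp8 lies in a run of matrix metalloproteinase genes, and its 5 nearest neighbours on each side were looked up after its values were seen. Of these 10 genes 6 were under background on every array. Mmp27, the next gene, read 4.61 and 4.63 with GSK343 against 5.20 and 5.16 with vehicle, close to background (difference −0.56, adjusted p = 0.58 by limma). In neutrophils Mmp27 averaged 7.12 in those labelled Ezh2-null and 7.66 in wild type (difference −0.54, adjusted p = 0.0739). Mmp12, macrophage elastase, was 3.99-fold higher in neutrophils labelled Ezh2-null, at 11.43 and 12.27 against 9.07 and 10.64 in wild type (adjusted p = 0.0187). It was not called with GSK343, reading 7.87 and 7.68 against 7.36 and 7.17 with vehicle. In undifferentiated cells Mmp12 lay under background in both genotypes, where Mmp8 was 86-fold lower in Ezh2-null cells. Tmem123 and Birc2, the neighbours beyond the cluster, were not called for genotype or drug.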
